A study of Mus musculus with 2 samples.

Results

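The replication-dependent histone gene cluster of mouse chromosome 13 was described from whole-genome bisulfite reads of the dentate gyrus. The stretch was taken as chr13:21700001-23900000 (mm9), 2.2 Mb in 50 kb windows, from replicate 2 and from cytosines with at most 100 reads. It held 44 of the 47726 autosomal windows in which a CpG was listed. It was set against a left flank, chr13:19500001-21700000 (44 windows), and a right flank, chr13:23900001-26000000 (42 windows). The rule for the stretch used no measured value, but the stretch was chosen with earlier results of these data known. The series had 1 group of 2 libraries, which its design text calls biological replicates. DNA came from dentate gyri cut from both hemispheres of male C57Black6 mice, labelled WT, of 8 to 10 weeks. The labels do not say whether animals were pooled, and levels are averages over all cells of the tissue, so a level between 0 and 100% from a mixture of cell types and one from partial methylation of each cannot be told apart.

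Replication-dependent histone genes encode the core histones H2A, H2B, H3 and H4 and the linker histone H1. They are transcribed mainly while DNA is copied, have no introns, and their messages end in a stem-loop in place of a poly(A) tail. Many H2A and H2B genes stand head to head and share the DNA between their starts. In mice the largest set lies on chromosome 13, on both sides of an array of Vmn1r genes, which encode pheromone receptors of the vomeronasal organ. In mammals most CpG cytosines are methylated outside promoters rich in CpG, and neurons also carry methylation at CHG and CHH sites, where H is A, C or T. Bisulfite reads do not separate methylcytosine from hydroxymethylcytosine.

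Promoter sequences were taken from RefSeq (GRCm38.p6) and placed on mm9 by the pattern of listed cytosines, without converting coordinates. All 166 promoter windows of the region, from 155 genes, were slid together at their RefSeq spacing along the listed cytosines. At the best shift all 629 listed cytosines in the windows fell on a C of the same context (100%), against 70 of 488 (14.3%) at the next best shift. A window of 300 bases, 250 before the gene's start and 50 after it, counted as placed where it held at least 1 listed cytosine of its own. Of the 49 histone genes in the cluster, 28 were placed and 22 of these had a listed CpG.

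The sequences below are the 250 bases upstream of 6 histone genes, 5′ to 3′ in the direction of the gene. Capitals mark the CpG sites listed in replicate 2. The first 5 had the most listed CpG of their family (ties went to more reads), and H1f5 was added, after its values were seen, to stand beside H1f6. They lay at chr13:23622662-23622911 for H4c8, at chr13:23837390-23837639 for H3c3, at chr13:22134818-22135067 for H2ac11, at chr13:21879106-21879355 for H2bc22, at chr13:23787429-23787678 for H1f6 and at chr13:21872494-21872743 for H1f5. H4c8, H2bc22 and H1f6 are on the plus strand, and H3c3, H2ac11 and H1f5 on the minus strand.
H4c8: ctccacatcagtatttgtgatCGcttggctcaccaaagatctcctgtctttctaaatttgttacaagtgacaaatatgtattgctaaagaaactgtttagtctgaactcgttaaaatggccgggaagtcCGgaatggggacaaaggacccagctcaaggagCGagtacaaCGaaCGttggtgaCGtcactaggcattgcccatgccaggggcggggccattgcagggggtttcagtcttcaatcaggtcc
H3c3: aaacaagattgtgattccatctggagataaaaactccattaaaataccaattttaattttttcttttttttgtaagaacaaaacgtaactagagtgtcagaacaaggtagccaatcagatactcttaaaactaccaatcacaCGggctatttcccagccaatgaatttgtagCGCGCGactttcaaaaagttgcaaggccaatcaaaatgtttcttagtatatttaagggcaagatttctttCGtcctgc
H2ac11: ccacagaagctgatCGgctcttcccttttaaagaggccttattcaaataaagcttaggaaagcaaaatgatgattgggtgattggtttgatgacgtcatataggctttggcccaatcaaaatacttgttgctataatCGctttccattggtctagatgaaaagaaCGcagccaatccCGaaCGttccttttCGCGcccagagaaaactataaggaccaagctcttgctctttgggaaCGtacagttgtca
H2bc22: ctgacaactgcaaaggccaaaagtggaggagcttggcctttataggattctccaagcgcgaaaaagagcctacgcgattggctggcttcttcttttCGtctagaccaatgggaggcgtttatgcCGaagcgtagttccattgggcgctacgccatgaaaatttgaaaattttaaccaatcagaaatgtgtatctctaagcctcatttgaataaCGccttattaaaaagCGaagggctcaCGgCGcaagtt
H1f6: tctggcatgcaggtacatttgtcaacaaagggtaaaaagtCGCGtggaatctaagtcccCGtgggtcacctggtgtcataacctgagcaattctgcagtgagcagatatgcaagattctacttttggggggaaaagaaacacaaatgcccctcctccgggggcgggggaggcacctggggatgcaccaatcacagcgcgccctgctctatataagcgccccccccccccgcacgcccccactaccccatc
H1f5: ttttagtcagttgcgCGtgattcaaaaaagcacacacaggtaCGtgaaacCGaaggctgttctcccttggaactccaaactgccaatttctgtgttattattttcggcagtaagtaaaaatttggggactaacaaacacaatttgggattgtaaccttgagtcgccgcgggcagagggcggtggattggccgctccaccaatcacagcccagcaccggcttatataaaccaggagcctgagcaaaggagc
Of the CpG in these letters, 6 of 9 were listed for H4c8, 5 of 6 for H3c3, 8 of 9 for H2ac11, 6 of 14 for H2bc22, 3 of 10 for H1f6 and 3 of 11 for H1f5. The next 2 sequences are promoters of other families in the same stretch, the zinc finger gene Zfp184 (chr13:22036712-22036961) and the pheromone receptor gene Vmn1r223 (chr13:23340856-23341105), both on the plus strand. They are shown because they had the most listed CpG of their families and differ in level.
Zfp184: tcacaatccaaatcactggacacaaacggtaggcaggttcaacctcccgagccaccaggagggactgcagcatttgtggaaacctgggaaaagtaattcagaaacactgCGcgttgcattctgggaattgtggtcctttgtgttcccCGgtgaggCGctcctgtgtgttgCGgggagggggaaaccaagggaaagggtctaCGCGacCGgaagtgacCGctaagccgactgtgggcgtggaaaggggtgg
Vmn1r223: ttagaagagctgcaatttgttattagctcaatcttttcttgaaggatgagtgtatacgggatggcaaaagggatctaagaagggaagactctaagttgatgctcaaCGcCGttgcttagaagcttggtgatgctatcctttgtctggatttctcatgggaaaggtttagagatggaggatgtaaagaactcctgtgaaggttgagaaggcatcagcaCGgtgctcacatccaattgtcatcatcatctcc
Listed CpG were 8 of 13 for Zfp184 and 3 of 4 for Vmn1r223.

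At the histone promoters almost no read was methylated. H4c8, an H4 gene, had 0 methylated of 128 reads over 6 CpG, which allows a level of up to 2.34% by 3 counts of the total. H3c3, an H3 gene, had 0 of 151 reads over 5 CpG. The promoter that H2ac11 and H2bc11 share had 0 of 181 reads over 8 CpG. H2bc22, an H2B gene, had 2 of 194 reads (1.03%), both at position 21879202, where 2 of 21 reads were methylated. The linker histone gene H1f5 had 1 of 62 reads over 3 CpG (1.61%). That limit and the intervals below (exact Clopper-Pearson, 95%) cover counting error only, since reads from PCR without molecular identifiers are not independent molecules.

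H1f6, the gene of the testis linker histone H1t, was the exception among the histone promoters with a listed CpG. It had 54 methylated of 66 reads (81.8%), with 15 of 23 reads at position 23787469, 21 of 23 at position 23787471 and 18 of 20 at position 23787488. All 3 sites lay far upstream in the window, and the 7 CpG nearer the gene's start were not listed. A run of 5 CpG with 0 of 117 methylated reads lay 1863 bases beyond the H1f6 window, at chr13:23789591-23789924. The window of the H4 gene H4c3, which had no listed cytosine, was nearer to that run, at 353 bases by the common shift. In the right flank, H2ac1, the gene of a testis H2A variant, had its 1 listed CpG methylated in 21 of 21 reads.

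By family, the H3 promoters had 2 methylated of 555 reads (0.360%, interval 0.0437 to 1.30%) in 6 genes. The H2A promoters had 4 of 683 (0.586%, 0.160 to 1.49%) in 6 genes, and the H2B promoters 6 of 656 (0.915%, 0.336 to 1.98%) in 6 genes. H4 had 0 of 128 reads (0 to 2.84%), from H4c8 alone among 11 H4 genes. H1 had 55 of 170 reads (32.4%, 25.4 to 39.9%), and 54 of the 55 came from H1f6, beside H1f5 and H1f4. Of the 22 histone genes, 20 were under 10% and 14 of these had no methylated read. Besides H1f6, the H2B gene H2bc14 was above 10%, with 4 of 22 reads at 1 CpG (18.2%). A run of 6 CpG with 0 of 141 methylated reads lay 18 bases beyond the H2bc14 window, at chr13:21813979-21814065. Some of the 20 genes under 10% rest on 1 CpG, such as H2ac10 (0 of 21 reads). With at least 3 listed CpG, 15 of 16 histone genes of the cluster were under 10%. Genes that share a promoter share sites here, so the families are not independent of each other.

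The Vmn1r promoters of the same stretch were the other way. Over 8 of 33 Vmn1r genes with a listed CpG, 286 of 341 reads were methylated (83.9%, 79.5 to 87.6%). Of these genes 7 were over 50%, and the pseudogene Vmn1r-ps103 stood at 12 of 24 reads. Vmn1r223 had 26 of 31, 30 of 33 and 16 of 21 methylated reads at its 3 CpG. Vmn1r188 had 67 methylated reads over 2 CpG (89.3%). The histone windows held a median of 11 CpG, against 1 in the Vmn1r windows. Zfp184 stood with the histone genes, at 0 of 180 reads over 8 CpG. Hfe, which encodes a regulator of iron uptake and lies between H1f6 and H3c3, had 7 of 61 methylated reads over 2 CpG (11.5%), while Trim38, of the TRIM family of ubiquitin ligases, had 21 of 22 reads at 1 CpG. In the flanks, 13 genes other than histone genes had a listed CpG, with 5 under 10%, 8 over 50% and 420 of 830 reads methylated (50.6%). That read count takes the 1 listed CpG of Gm32242 (24 of 25 reads) once for each of its overlapping windows.

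**Figure D1:**
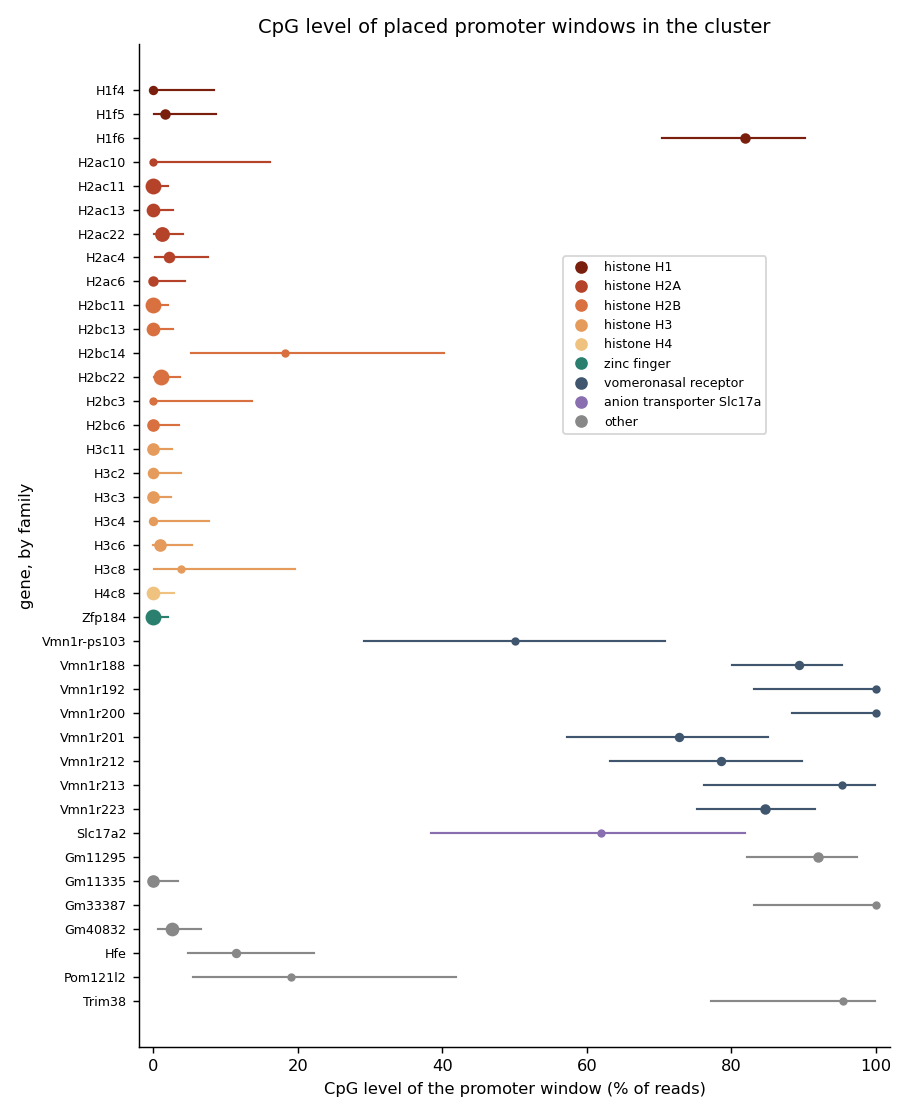
CpG level (percent of reads) of each placed promoter window with a listed CpG in the cluster, with exact 95% intervals, grouped by family; a larger point holds more CpG. The histone genes sit at the left edge except H1f6 at 81.8% and H2bc14 at 18.2%, and the Vmn1r genes lie at 50% or above.

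Short promoter motifs were counted on both strands of the 250 upstream bases, as a description. CCAAT was in 42 of 50 histone windows (84%), in 11 of 33 Vmn1r windows (33.3%) and in 33.8% of the 32851 RefSeq promoter windows. It was in every H1, H2A, H2B and H3 window and in 3 of 11 H4 windows. TATAAA was in 24 histone windows (48%), in 6 of 33 Vmn1r windows (18.2%) and in 12.4% of all windows. The octamer ATTTGCAT, known from H2B promoters, was in 5 of 14 H2B windows and 4 of 12 H2A windows. It was in 0 of the H1, H3 and H4 windows, in 3 of 33 Vmn1r windows (9.09%) and in 1.60% of all windows. AAACACA, the H1 box, was in 5 of 6 H1 windows, in 8 of 33 Vmn1r windows (24.2%) and in 6.25% of all windows. Shared H2A and H2B promoters enter more than once, and no motif searched contains another.

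Over the whole stretch CpG methylation was lower than beside it. The cluster had 63.3% methylated reads (62.9 to 63.6%, 2834 sites), the left flank 79.5% (79.2 to 79.8%, 2876 sites) and the right flank 80.4% (80.0 to 80.7%, 2667 sites). All autosomes stood at 79.0%. The difference from both flanks was -16.6 points, and in the two-sided Fisher's exact test the p was smaller than double precision can hold. Without the sites in runs of unmethylated CpG, the difference was -10.0 points (71.0% in the cluster, 81.0% in both flanks). CpG sites under 10% made up 20.3% of the cluster, 5.08% of the left flank, 2.62% of the right flank and 3.19% of the autosomes. Median depth was 23 reads per CpG in each of these regions. All such tests compare reads of 1 library, so they carry no check between animals; the spread among 50 kb windows is given with them. Window levels averaged 70.0% ± 17.5 (SD, 43 windows) in the cluster, 80.5% ± 8.56 (44 windows) in the left flank and 80.2% ± 5.51 (42 windows) in the right flank.

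Methylation outside CpG was low everywhere and lower still in the cluster. CHG sites had 0.580% methylated reads in the cluster (0.557 to 0.603%, 17728 sites), 0.834% in the left flank, 0.888% in the right flank and 0.784% on all autosomes. The difference from both flanks was -0.28 points, with an adjusted p of 1.71e-67 in the two-sided Fisher's exact test over 9 comparisons. CHH sites had 0.651% in the cluster (0.615 to 0.688%, 5701 sites), 0.952% in the left flank, 1.02% in the right flank and 0.889% on all autosomes, with a difference of -0.33 points and an adjusted p of 1.62e-37. Mitochondrial CHG and CHH sites, taken as the level left by incomplete conversion, stood at 0.368%. Above that level the cluster had 0.212 points of CHG methylation, against 0.467 points in the left flank and 0.521 points in the right flank. CHG windows averaged 0.581% ± 0.142 in the cluster, 0.828% ± 0.293 in the left flank and 0.879% ± 0.277 in the right flank.

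The CpG difference lay at the ends of the stretch and the CHG difference ran through it. Cut into 4 blocks of 550 kb, the cluster had CpG levels of 57.4% in block 1, 83.1% in block 2, 81.2% in block 3 and 51.6% in block 4, against 79.9% in both flanks. Placed histone promoters lay in blocks 1 and 4 and in neither of the others, where the placed promoters were of Vmn1r genes and of Gm11295. Block 2 was 3.19 points above the flanks (adjusted p = 6.54e-17, two-sided Fisher's exact test over 12 comparisons) and block 3 was 1.26 points above (adjusted p = 0.00229). CHG levels were 0.635%, 0.547%, 0.629% and 0.512% in blocks 1 to 4, each below the 0.860% of both flanks. The adjusted p ranged between 7.16e-38 in block 4 and 1.35e-14 in block 3. CHH levels were 0.651%, 0.527%, 0.762% and 0.670%, each below the 0.983% of both flanks, with the highest adjusted p (3.31e-06) in block 3. Across the 43 windows of the cluster the CpG and CHG levels had a Spearman correlation of -0.03, against 0.45 in the left flank, 0.10 in the right flank and 0.07 over 47435 autosomal windows. Windows that share reads of 1 library and lie side by side are not independent points.

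**Figure D2:**
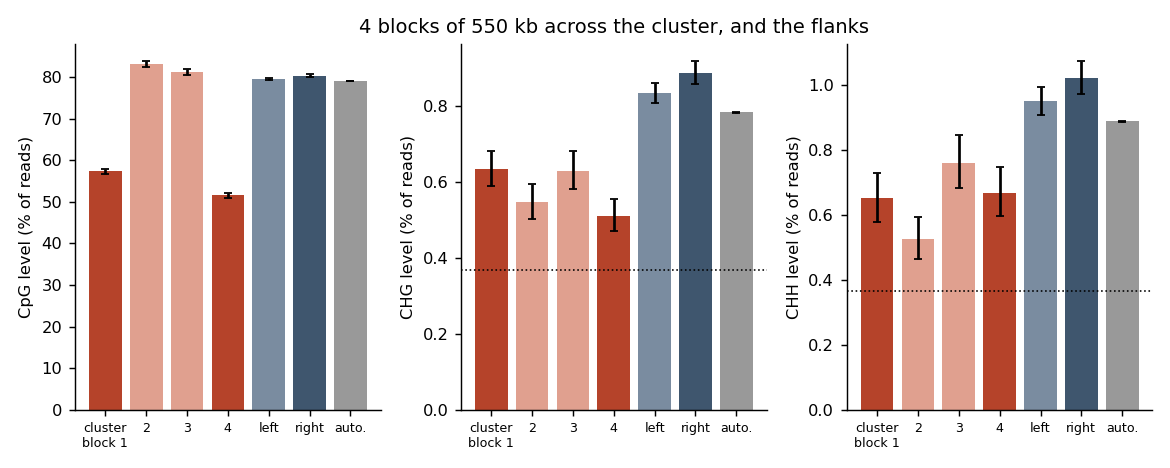
CpG, CHG and CHH levels (percent of reads, exact 95% intervals) in the 4 blocks of 550 kb across the cluster, then in the left flank, the right flank and all autosomes; dark red blocks hold placed histone promoters and the dotted line is the mitochondrial level of 0.368%. CpG levels are low in blocks 1 and 4, and CHG and CHH levels lie below both flanks in all 4 blocks.

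The lower CHG level did not stop at the chosen left border. The 550 kb of the left flank next to the cluster had 0.531% CHG (0.488 to 0.576%), 0.687% CHH and 68.9% CpG, and held all 9 unmethylated runs of that flank. The 550 kb beyond had 0.927% CHG, 0.972% CHH and 83.6% CpG. The 550 kb of the right flank next to the cluster had 0.854% CHG, 0.909% CHH and 79.7% CpG. These adjoining stretches were chosen after the windows were seen.

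By window, 43 of the 44 in the cluster had enough sites to test (10 CpG, 50 CHG and 20 CHH). The window at chr13:23000001-23050000 was left out, with 4 listed CpG. Against the autosomal level (two-sided exact binomial test, adjusted over all autosomal windows at 0.05), CpG was lower in 19 windows of the cluster, where 28.5% of all autosomal windows were lower, and higher in 16, where 44% were higher. CHG was lower in 20, against a background of 23.7%, and higher in 0, against 17.2%. CHH was lower in 19, against 20.5%, and higher in 2, against 17.4%. In the left flank CHG was lower in 12 and higher in 11 of 44 windows, and in the right flank lower in 6 and higher in 8 of 42.

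The lowest CpG window was chr13:23600001-23650000, at 25.5% (23.9 to 27.1%, 124 sites), where the placed promoters were those of H4c8, Gm11335, H2ac10, H3c8 and H2bc9. It was followed by chr13:22100001-22150000 at 32.6% (133 sites), around H2ac11 and H2bc11, and by chr13:23500001-23550000 at 32.6% (125 sites), in which no promoter was placed. The highest were chr13:22250001-22300000 at 87.0%, chr13:22350001-22400000 at 86.4% and chr13:23100001-23150000 at 86.0%, all among the Vmn1r genes. In the cluster 8 windows were under 50% CpG, against 1 in the left flank and 0 in the right flank, and 0.607% of autosomal windows were. By CHG the highest windows were chr13:21900001-21950000 at 0.924%, chr13:22100001-22150000 at 0.920% and chr13:23150001-23200000 at 0.847%. The lowest were chr13:23500001-23550000 at 0.289%, chr13:22200001-22250000 at 0.332% and chr13:23450001-23500000 at 0.359%. By rank, the window around H2ac11 was among the lowest in CpG and the highest in CHG, and the one at chr13:23500001-23550000 among the lowest in both. The CHG level around H2ac11 (interval 0.740 to 1.13%) was not called different from the autosomal level (adjusted p = 0.244, two-sided exact binomial test).

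**Figure D3:**
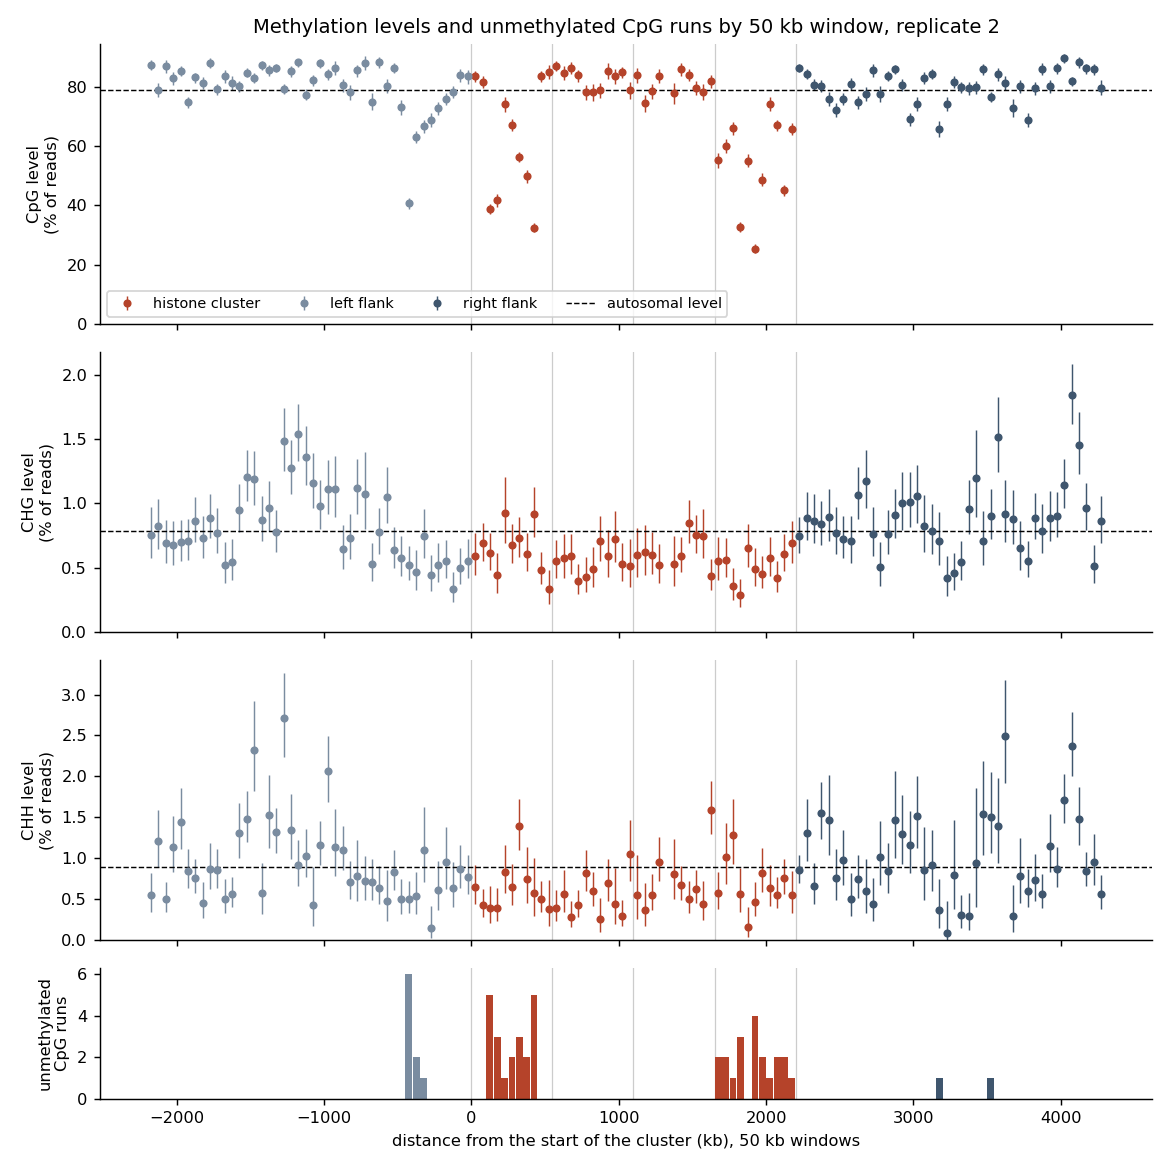
CpG, CHG and CHH level (percent of reads, exact 95% intervals) and number of unmethylated CpG runs in each 50 kb window against distance from the start of the cluster (kb), with grey lines at block borders and the autosomal level dashed. All 8 windows of the cluster under 50% CpG and all 41 of its runs lie in the outer blocks, and its CHG windows lie between 0.289% and 0.924%.

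Unmethylated runs were stretches of at least 5 listed CpG, each under 10% and no more than 300 bases apart. The cluster held 41, the left flank 9 and the right flank 2. That is 18.6 per Mb in the cluster, 4.09 in the left flank, 0.952 in the right flank and 1.15 over the autosomes. Block 1 held 21 and block 4 held 20, and blocks 2 and 3 held 0. A run was present in 17 of the 44 windows of the cluster (38.6%), in 3 of 44 in the left flank and in 2 of 42 in the right flank, where 5.04% of autosomal windows held one. Among 1116 autosomal tiles of 2.2 Mb, laid so that the cluster was 1 of them, no tile had more than its 41 runs. The next had 16 and the median was 2. By CpG level 1 of 1101 tiles was lower than the cluster, and by CHG level 86 of 1111 (7.74%).

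**Figure D4:**
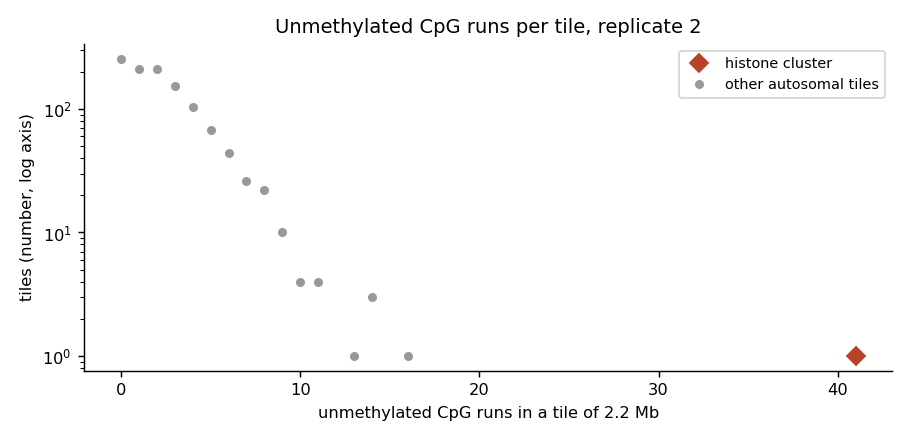
Number of autosomal tiles of 2.2 Mb (log axis) by the number of unmethylated CpG runs they hold; the diamond is the histone cluster. The cluster stands at 41 runs and the next tile at 16.

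Runs in the cluster had a median of 6 CpG and 213 bases, and together 63 of 7419 reads were methylated (0.849%). In 20 of the 41 no read was methylated. The run with the most CpG lay at chr13:23528894-23529880, with 22 CpG and 2 of 516 reads methylated (0.388%). The run at chr13:23609254-23610159 had 17 CpG and 2 of 408 reads, and the run at chr13:23487426-23488018 had 16 CpG and 6 of 391 reads. No placed promoter overlapped these 3. The run at chr13:23621792-23622845, which overlapped the promoter windows of H4c8 and of the predicted gene Gm11335, had 15 CpG and 3 of 342 reads. At 1054 bases it was as long as the longest run of the autosomes. It was followed by chr13:23617990-23618483 with 14 CpG and 1 of 329 reads.

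Runs of 10 CpG lay at chr13:23623381-23623906 (0 of 225 reads), chr13:23678152-23678425 (0 of 247), chr13:21879202-21879414 (2 of 240) and chr13:22142444-22142734 (1 of 226). The third of these is the promoter shared by H2ac22 and H2bc22. Of the 3 runs of 9 CpG, the one at chr13:21807979-21808267 (0 of 194 reads) lay on the shared promoter of H2bc13 and H2ac13. Those at chr13:21827346-21827874 (9 of 241 reads) and chr13:22112005-22112110 (4 of 207 reads) overlapped no placed promoter. The run with the most CpG in the right flank had 11, and the most in the left flank was 8.

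Of the 41 runs, 9 overlapped a placed histone promoter and took in 12 histone genes, 2 overlapped a promoter of another gene (Zfp184 and Gm40832), and 30 overlapped none. Within 1000 bases of a placed histone window were 14 runs, and 24 were farther than that from any placed window. Windows without a listed cytosine could not be checked, but the common shift gives them a position. With these included, a count added after seeing the data, 19 runs were within 1000 bases of a histone window and 18 were farther than that from any window. The 5 runs gained lay next to H4c11 (28 and 395 bases), another window of H2bc6 (64 bases), H4c1 (314 bases) and H4c3 (353 bases). By the definitions used, no run could overlap a window without a listed cytosine. Listed CpG on either side of such a window lie farther apart than a run allows. The lack of overlap therefore says nothing about methylation in those windows. Summed over windows, only 94 of 587 CpG in the histone windows were listed (16.0%), against 13 of 45 in the Vmn1r windows (28.9%). A CpG in a promoter shared by histone genes counts once for each window.

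CpG levels were higher farther from a run, with 1 break in the order in the cluster. In the cluster they were 13.4% at 1 to 250 bases, 34.7% at 501 to 1000 bases, 69.9% at 2001 to 5000 bases and 81.5% beyond 20000 bases. Over the autosomes the same distances had 21.6%, 42.9%, 72.4% and 79.8%. Between 5001 and 20000 bases the cluster was at 65.2% and the autosomes at 77.8%. CHG levels in the cluster changed little outside the runs, with values between 0.502% and 0.644% in the 7 distance classes and 0.587% (0.559 to 0.617%) beyond 20000 bases. Beyond that distance the left flank had 0.854%, the right flank 0.893% and the autosomes 0.785%. Inside the runs of the cluster CHG stood at 0.311% (256 sites), against 0.584% outside (adjusted p = 0.00372, two-sided Fisher's exact test over 2 comparisons). Inside runs CHG stood at 0.195% in the left flank (62 sites), at 2.06% in the right flank (16 sites, against 0.887% outside) and at 0.355% over the autosomes. CHH stood at 0.177% (71 sites) inside and 0.657% outside (adjusted p = 0.00372, two-sided Fisher's exact test). The mitochondrial 0.368% lies within the intervals of both inside levels, 0.187 to 0.486% for CHG and 0.0483 to 0.453% for CHH.

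**Figure D5:**
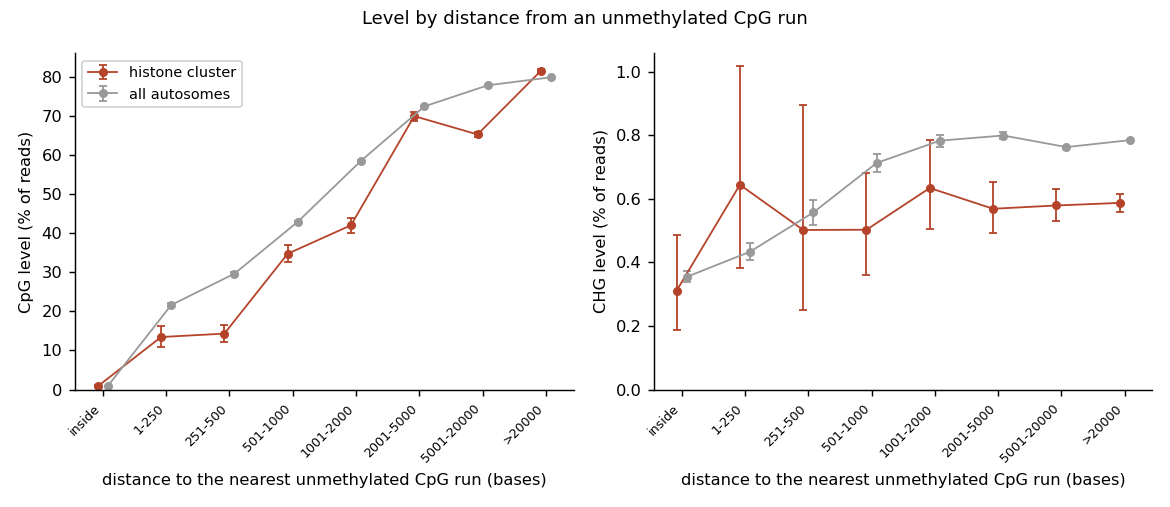
CpG and CHG level (percent of reads, exact 95% intervals) by distance from the nearest unmethylated CpG run, in the histone cluster and over all autosomes. CpG is near 0 inside runs and about 80% far from them in both, and CHG beyond 20000 bases is 0.587% in the cluster and 0.785% over the autosomes.

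Called CHG and CHH sites made up a smaller share of the cluster than of either flank, with intervals that did not overlap. A site was called when its methylated reads exceeded the mitochondrial rate (one-sided exact binomial test, adjusted at 0.01 over all autosomal sites of its context). CHG calls made up 154 of 17728 sites (0.869%, 0.737 to 1.02%) in the cluster, 1.53% (1.36 to 1.72%) in the left flank and 1.74% (1.55 to 1.95%) in the right flank, against 1.46% of autosomal sites. CHH calls made up 113 of 5701 sites (1.98%, 1.64 to 2.38%) in the cluster, 3.14% (2.71 to 3.61%) in the left flank and 3.18% (2.70 to 3.73%) in the right flank, against 2.75% of autosomal sites. The median level of called CHG sites was 15.4% in the cluster, 16.7% in the left flank and 17.4% in the right flank. The highest CHG site of the cluster, at position 22016358, had 12 of 25 reads methylated, and the highest CHH site, at position 22005699, had 19 of 31. Both lay in the window that also holds Zfp184.

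Replicate 1 listed few sites here and gives no test of these patterns. In the cluster it had 4 CpG at 80.0%, 31 CHG at 0.823% and 90 CHH at 0.791%. In the left flank it had 2 CpG, 20 CHG and 70 CHH sites, and in the right flank 3 CpG, 7 CHG and 22 CHH sites. Its tables held 30594981 read calls, against 791200717 in replicate 2.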

How the data were processed

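Bisulfite libraries of 2 dentate gyrus samples were sequenced. The authors used Bismark 0.7.5 and build mm9, per the submitters' processing notes. Any trimming, duplicate removal or conversion filter was not given in the sources used here. Per the labels' protocols, 3 µg of DNA with 0.5% lambda phage DNA was sheared to about 300 bp before conversion; the lambda reads were not analysed here. The authors deposited, for each library and context, read counts per cytosine (total, methylated and unmethylated) and the percent methylated, with no header. The tables cover 1 strand class (OT), at 20 or more reads per site, or 30 for CHH in replicate 2, so shallow sites and the other strand are not represented.

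Levels were methylated over total reads of sites with at most 100 reads, except the mitochondrial level. That level had no upper depth limit (2796 sites, 24979699 reads). Replicate 2 alone entered the comparisons. Region levels were compared by two-sided Fisher's exact tests, windows and single sites by exact binomial tests, with Benjamini-Hochberg adjustment (Python 3.11.15, numpy 2.4.6, pandas 2.3.3, scipy 1.17.1). The unit was reads of 1 library, so p-values cover counting error only. The window and site tests, for CHG only, and the search for runs were checked on simulated data with independent reads. The Fisher's exact tests were not checked in that way. Named windows were the 3 highest and 3 lowest by CpG and by CHG, named runs the 10 with the most CpG, and histone genes those with the most listed CpG; others were named after their values were seen. Matching promoters one at a time (at least 15 listed cytosines, 95% of them matching) placed no histone promoter, so the joint match was added after the data were seen, as were the tests of single blocks. No mm9 sequence or annotation was used, and gene bodies were not analysed here. The stretch and the lists were chosen with earlier results of these data known.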

Additional observations from a re-analysis of the deposited data

How the results depend on the processing

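Of 82 recomputed values for 13 results, 61 kept their direction and their side of the threshold or moved little. The 61 include values that could not change, named below, so the count overstates how stable the results are. At 40 reads or more, 11 CpG sites of the cluster and 18 of the flanks were left. There the CpG difference from the flanks was reversed, at 5.40 points (p = 0.00619, two-sided Fisher's exact test). The CHH difference was also reversed, at 0.12 points (p = 0.280, two-sided Fisher's exact test). The called share of CHG sites was 0% (of 67) in the cluster, against 3.21% in the flanks. That of CHH sites was 4.66% (of 236) in the cluster, above the 3.17% of the flanks, so the lower share of called CHH sites did not hold there. At 30 reads or more the cluster and the flanks held 0 runs and the autosomes 38. At that depth CpG was lower in 5 of the 7 windows of the cluster that could be tested (24.8% of autosomal windows) and CHG in 0 of 8 (8.28%). Within the cluster, the CpG difference was 3.19 points in block 2 and 1.26 points in block 3, which hold no run. Without replicate 2, the sites of replicate 1 gave -7.16 points for CpG (4 against 5 sites, p = 0.172, two-sided Fisher's exact test), -0.93 points for CHG (p = 0.142, two-sided Fisher's exact test) and -5.16 points for CHH. In that library the CHG and CHH levels of the cluster (0.823% and 0.791%) lay below the left flank (2.12% and 7.56%) and above the right flank (0.680% and 0.661%). Runs numbered 73 with at least 3 CpG and 15 with at least 8; with these 15 the CHG difference inside runs was -0.16 points (p = 0.265, two-sided Fisher's exact test). Against a background of 1%, called shares were 0.333% for CHG and 0.649% for CHH in the cluster. CpG was lower in 32 of 85 windows of 25 kb (25.9% of autosomal windows) and in 10 of 22 windows of 100 kb (30.8%). One at a time, 14 of 1527 chromosome 13 promoters were placed, 35 with at least 10 listed cytosines and 1 with at least 25. Of 31324 promoters from other chromosomes, put through the same search to count false placements, 2, 50 and 1 were placed at these settings. At 10 listed cytosines a placement of a single promoter is therefore not reliable. The joint match, which was chosen after seeing the data, placed 95. Taking off the mitochondrial level cannot move a difference. The CHH sites of replicate 2 all had 30 or more reads, so that depth limit cannot move a CHH value. No paired analysis was possible because there is 1 group. For changes other than those through fewer sites, the cause was not tested.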
